A study of Mus musculus with 13 samples.

Results

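Hox genes encode homeodomain transcription factors that stand in 4 chromosomal clusters, and the 38 rows of the expression table with a Hox coding gene symbol (Hoxa, Hoxb, Hoxc or Hoxd followed by a number) are described here, of 33432 named genes in all. They were taken by symbol alone, without use of their values. The HoxA cluster gave 11 genes (mm10 chromosome 6, with Hoxa2 to Hoxa13 at 52162417 to 52260880), HoxB 10 (chromosome 11, 96194316 to 96368256), HoxC 9 (chromosome 15, 102921103 to 103036852) and HoxD 8 (chromosome 2, 74668310 to 74765142). The libraries are RNA-seq of mesenchymal stromal cells (MSCs), which form connective tissue and support blood formation, sorted from marrow and compact bone of C57BL/6 mice. Of the 13 libraries, 3 came from healthy (control) mice, 6 from pre-leukemic mice and 4 are labelled recovered, which matches the protocol's pre-leukemic mice treated with MSCs. The genotype or agent that made mice pre-leukemic, age, sex, the bones used, the surface markers of the sort and any pooling of animals are not stated in the labels. No label ties a library to its own animal, so the p-values rest on the spread among these libraries, which may be technical.

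Within a cluster the genes lie in the order of their 13 paralogue groups, and in the embryo low-numbered genes are switched on early and towards the head while high-numbered genes follow late and towards the tail, in the trunk and again in the limbs. Genes of the same group in different clusters are paralogues with related functions. Connective tissue of the adult skeleton keeps a Hox pattern that reflects where in the body it was formed, and several HoxA genes are also used by blood stem and progenitor cells. Polycomb complexes hold silent Hox genes in repressed chromatin, trithorax (MLL) complexes keep active ones on, retinoic acid and Cdx factors set their first pattern, and Pbx and Meis proteins bind DNA with Hox proteins.

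Values are FPKM, fragment counts scaled to transcript length and library depth. A gene is called detected in a library at 1 FPKM or more. By the steps between low values, 3 reads on a 1 kb transcript were worth 0.911 to 1.1 FPKM where the mice were healthy, 0.471 to 0.667 where they were pre-leukemic, and 0.997 to 1.83 for recovered libraries, so the pre-leukemic libraries read low Hox values at the finest step. Healthy 1 and 3 were nearly the same library: the chi-square per gene of their estimated reads was 1.21 at 10 to 100 reads and 1.3 above, against at least 11 and 22.8 in the other 23 pairs from the same group. Their mean was counted as 1 sample, which leaves 2 healthy, 6 pre-leukemic and 4 recovered samples in means and tests. Of the summed FPKM, 54.9 to 80.5% belonged to immunoglobulin genes in pre-leukemic libraries, against at most 0.134% elsewhere, and leukocyte markers were high and stromal markers low in all 6 of them, with values given beside the marker lists below.

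The healthy libraries expressed a posterior HoxA and HoxC pattern, with paralogue group 10 on top. Hoxa10 and Hoxc10 led in healthy 1 and 3, and Hoxa9 and Hoxa10 led in healthy 2. The number of Hox genes detected was 17, 12 and 17 in the healthy libraries, 6, 4, 3, 6, 6 and 5 in the pre-leukemic ones and 12, 11, 14 and 10 in the recovered ones. The 38 genes summed to 162.3, 137.7 and 146.0 FPKM in healthy libraries, to 13.9 to 22.5 (median 18.1) in pre-leukemic libraries, and to 85.7, 138.8, 274.1 and 105.7 in recovered libraries. Neither the counts nor the sums of the pre-leukemic libraries overlapped those of the other groups. In bulk RNA, fewer cells of a type and less RNA per cell cannot be told apart.

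**Figure D1:**
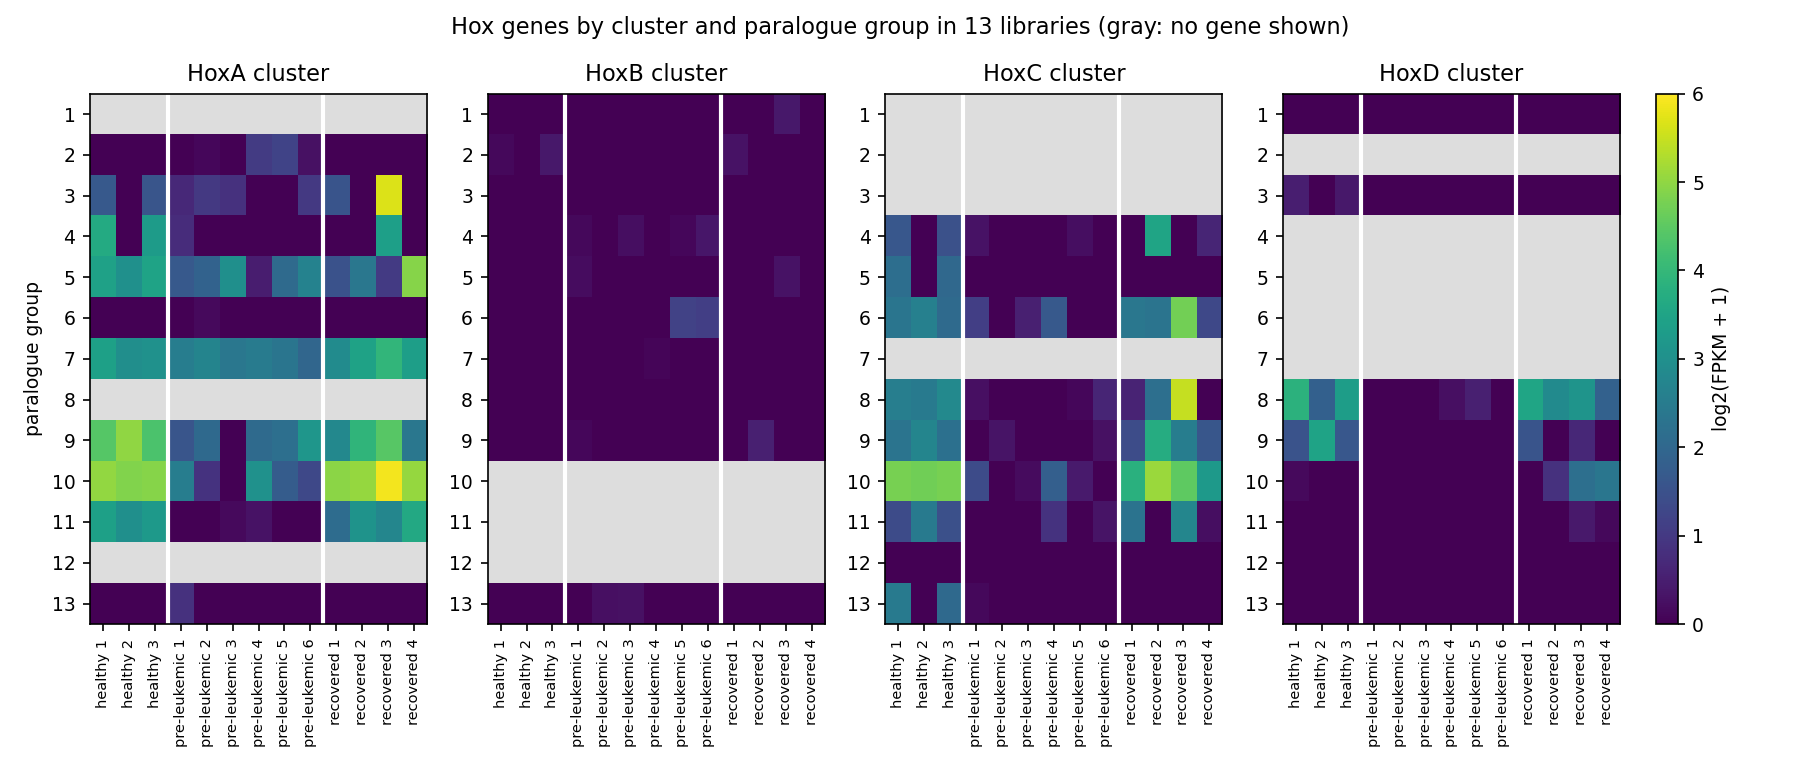
Level of each Hox gene, as log2(FPKM + 1) in colour, by paralogue group (vertical axis) and library (horizontal axis), with a panel for each cluster and white lines between the groups healthy, pre-leukemic and recovered. HoxA and HoxC carry most signal, HoxB is dark throughout with a highest value of 1.26 FPKM, and gray marks places without a gene shown.

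All 38 genes fell into 4 classes by how widely they were seen. At least 1 FPKM in at least 3 libraries was reached by 15 genes, which are the ones tested: Hoxa3, Hoxa4, Hoxa5, Hoxa7, Hoxa9, Hoxa10, Hoxa11, Hoxc4, Hoxc6, Hoxc8, Hoxc9, Hoxc10, Hoxc11, Hoxd8 and Hoxd9. A further 6, such as Hoxb6, Hoxc13 and Hoxd10, reached it in 1 or 2 libraries. Values above 0 but never 1 FPKM were held by 11 genes, namely Hoxa6, Hoxa13, Hoxd3, Hoxd11 and 7 of HoxB. The remaining 6 (Hoxb3, Hoxb8, Hoxc12, Hoxd1, Hoxd12 and Hoxd13) were listed at 0 in every library. Hoxa13 and the last 2 of these pattern the hand and foot in the embryo.

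HoxA gave the largest share of the Hox signal in every library. Its share of the summed Hox FPKM was 58.9, 58.2 and 58.4% in healthy libraries, 74.2 to 96.9% (median 87.2) in pre-leukemic libraries, and 58, 49, 58.3 and 81.6% in recovered libraries. HoxC gave 31.3, 32.6 and 33.5% in healthy libraries, 1.82 to 24.8% (median 4.21) in pre-leukemic libraries, and 27.2, 45.6, 37.1 and 12% in recovered libraries. The ranges of healthy and pre-leukemic libraries did not overlap for either cluster, while those of recovered and pre-leukemic libraries overlapped through recovered 4 alone. HoxD held 7.86 to 9.77% among healthy, 0 to 2.6% among pre-leukemic, and 4.43 to 14.6% among recovered libraries.

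The spread over paralogue groups also differed from library to library. Groups 5 to 8, the central part of the clusters, held 27.9, 18.9 and 26.7% of the Hox signal in healthy libraries, 33.1 to 79.9% (median 50.2) in pre-leukemic libraries, and 27.5, 20.1, 33.8 and 40.3% in recovered libraries. Group 10 held 35.7 to 38.8% among healthy, 0.854 to 43.2% among pre-leukemic, and 30.6 to 50.5% among recovered libraries, so pre-leukemic 1 and 4, at 32.9 and 43.2%, stood among the other groups. Groups 11 to 13 held 8.35 to 9.72% among healthy, 0 to 4.71% among pre-leukemic, and 4.31 to 10.9% among recovered libraries. A share within a library does not depend on how the whole library was scaled.

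**Figure D2:**
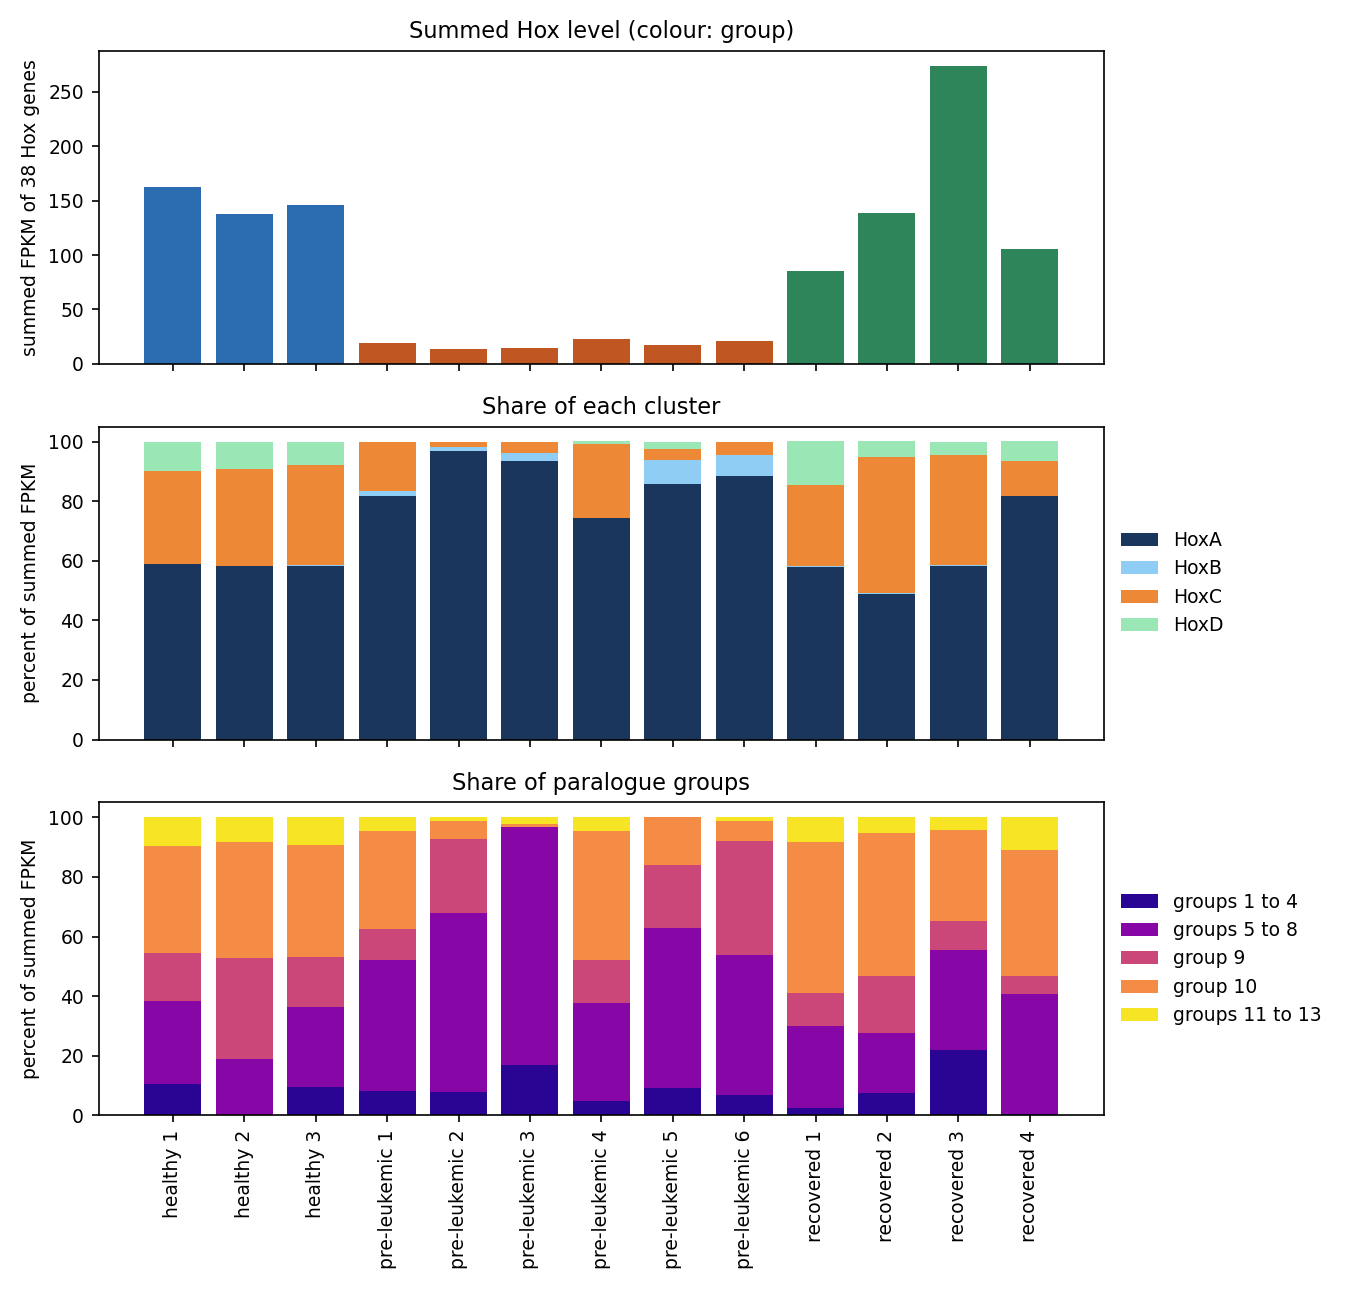
Summed FPKM of the 38 Hox genes (top), share of each cluster (middle) and share of the paralogue groups (bottom), both in percent of that sum, in each of the 13 libraries. The sum is 137.7 to 162.3 in healthy and 13.9 to 22.5 in pre-leukemic libraries, and HoxA takes 74.2 to 96.9% of it in the latter.

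Over the 38 genes, pairs of libraries were also compared by correlation of log2(FPKM + 1), as a description across genes, which are not replicates and many of which are at 0 in both libraries of a pair. The median Pearson r was 0.80 over 12 pairs of a healthy with a recovered library, 0.53 over 18 pairs of a healthy with a pre-leukemic one, and 0.54 over 24 pairs of a pre-leukemic with a recovered one. Among pre-leukemic libraries themselves r ran from 0.28 to 0.90, and among recovered ones from 0.57 to 0.82. The ranges of healthy with recovered (0.72 to 0.89) and healthy with pre-leukemic (0.24 to 0.75) overlapped.

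Hoxa10 and Hoxa11 are neighbours at the posterior end of HoxA and Hoxa5 lies in its middle, and their start regions are printed because the first pair differed most clearly between groups in that cluster while Hoxa5 did not pass the test. Each line gives the 250 bases before an annotated RefSeq start on the minus strand of GRCm38.p6, read 5′ to 3′ towards the gene, with CG dinucleotides in capitals. The Hoxa11 window is chr6:52245811-52246060, the distal and proximal Hoxa10 windows are chr6:52240855-52241104 and chr6:52234940-52235189, and the Hoxa5 window is chr6:52204588-52204837.
Hoxa11: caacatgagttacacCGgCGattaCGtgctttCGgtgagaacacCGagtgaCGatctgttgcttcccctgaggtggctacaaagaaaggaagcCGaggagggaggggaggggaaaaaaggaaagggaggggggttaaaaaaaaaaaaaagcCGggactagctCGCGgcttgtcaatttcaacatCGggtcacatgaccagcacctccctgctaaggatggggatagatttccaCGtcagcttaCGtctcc
Hoxa10 distal start: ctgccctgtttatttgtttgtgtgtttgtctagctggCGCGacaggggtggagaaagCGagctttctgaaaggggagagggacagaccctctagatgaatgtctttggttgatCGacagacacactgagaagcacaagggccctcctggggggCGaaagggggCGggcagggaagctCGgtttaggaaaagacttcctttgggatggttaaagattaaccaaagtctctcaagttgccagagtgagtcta
Hoxa10 proximal start: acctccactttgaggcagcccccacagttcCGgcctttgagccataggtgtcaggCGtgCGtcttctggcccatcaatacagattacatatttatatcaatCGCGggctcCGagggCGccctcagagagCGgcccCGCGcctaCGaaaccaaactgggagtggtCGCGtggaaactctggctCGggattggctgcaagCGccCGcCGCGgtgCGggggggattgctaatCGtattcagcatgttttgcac
Hoxa5: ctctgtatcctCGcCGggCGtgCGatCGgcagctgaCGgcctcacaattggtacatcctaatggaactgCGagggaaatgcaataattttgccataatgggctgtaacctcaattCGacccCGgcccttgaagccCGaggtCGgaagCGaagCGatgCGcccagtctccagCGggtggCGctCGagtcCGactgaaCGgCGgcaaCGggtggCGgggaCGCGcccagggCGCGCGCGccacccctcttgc

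In these windows there were 13 CG dinucleotides for Hoxa11, 7 and 20 for the distal and proximal Hoxa10 starts, and 28 for Hoxa5. The RefSeq table held 23 windows of 21 Hox genes, with a median of 13 CG dinucleotides and 59.2% G or C, against 6 and 52.4% over all 32851 windows of the same length. The 10 windows of tested Hox genes had a median of 10.5 and the 13 windows of the others 14, so the CG content of the tested genes was not the higher one. Motif letters were searched on both strands. TTTATG, which resembles sites of posterior Hox and Cdx proteins, stood in 4 of the 23 Hox windows and in 10.8% of all windows. Its variant TTTATT stood in 4 and in 18.1%, and shares 5 letters with it. The letters TGATNNAT, which resemble a joint Pbx and Hox site, were in 4 of 23 and in 7.7%. Of the 4 printed windows, that of the distal Hoxa10 start held 1 TTTATT and the others none of these letters. CCAAT, the core letters bound by the general factor NF-Y, were in 13 of 23 Hox windows and in 33.8% of all windows.

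Posterior HoxA and HoxC genes were lower in pre-leukemic than in healthy libraries, and all 15 estimated changes were below 0, so none was higher. limma on log2(FPKM + 1), fitted to all 13118 genes that passed the filter on low values, called 7 of the 15 tested Hox genes lower (Benjamini-Hochberg adjusted p under 0.05): Hoxa9, Hoxa10, Hoxa11, Hoxc9, Hoxc10, Hoxd8 and Hoxd9. Of all genes tested, 13.1% were called lower and 14.2% higher. The median change of the 15 genes was -2.40 on the log2 scale, with a range from -4.10 to -0.23, beside a median of 0.20 over all genes tested. The other 23 Hox genes were not tested. Hoxa4, Hoxa11, Hoxc4, Hoxc8, Hoxc9, Hoxc11, Hoxd8 and Hoxd9 reached 1 FPKM in no pre-leukemic library. They passed the filter through healthy and recovered libraries alone, so the filter partly fixed their direction, the count and the median. Hoxa9, Hoxa10 and Hoxc10 were detected in some pre-leukemic libraries. Changes on this scale understate those of genes with low values.

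Hoxa10, which patterns the lumbar spine and the upper leg, was the most abundant Hox gene over the healthy samples. It stood at 31.6, 28.3 and 28.9 FPKM in healthy libraries, at 0 to 7.17 (median 1.9) in pre-leukemic libraries, and at 30.2, 32.4, 58.4 and 32.2 in recovered libraries. Healthy and recovered libraries lay side by side, with recovered 3 above all, and no pre-leukemic library reached them. The change was -3.34 ± 0.69 (SE) from healthy to pre-leukemic samples (limma adjusted p = 0.00234) and 3.66 ± 0.54 from pre-leukemic to recovered samples (adjusted p = 0.000108). These comparisons share the pre-leukemic libraries, here and for every gene below. Between recovered and healthy samples the difference was 0.32, with a 95% interval from -1.24 to 1.89 (adjusted p = 0.903).

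Hoxc10, its paralogue on HoxC, showed the largest Hox change. Its values were 26.2, 25.1 and 26.2 FPKM in healthy libraries, 0 to 2.53 (median 0.241) in pre-leukemic libraries, and 13.1, 33.3, 21.9 and 8.44 in recovered libraries. Recovered libraries spread to both sides of the healthy ones and stayed above all pre-leukemic ones. It fell by 4.10 ± 0.64 on the log2 scale in pre-leukemic samples (limma adjusted p = 0.000296) and was 3.53 ± 0.51 higher in recovered than in pre-leukemic samples (adjusted p = 8.05e-05). Exons of Hoxc10 and of a long Hoxc5 transcript share 166 bp on the same strand, so reads there could be given to either.

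Hoxa11, which shapes the forearm and lower leg, was nearly absent from the pre-leukemic libraries. It measured 9.64, 6.94 and 8.56 FPKM in healthy libraries, at most 0.228 (median 0) in pre-leukemic libraries, and 3.32, 7.43, 5.78 and 11.3 in recovered libraries. All healthy and recovered values stood above all pre-leukemic ones. The limma change was -3.09 ± 0.47 (adjusted p = 0.000222) for pre-leukemic against healthy and 2.82 ± 0.37 (adjusted p = 3.58e-05) for recovered against pre-leukemic samples. Its exons overlap the antisense gene Hoxa11os, and no source states strand-specific counting, so reads of that pair cannot be told apart.

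Hoxa9, a regulator of blood stem cells and of leukemia when overexpressed, stayed intermediate in the recovered libraries. It stood at 20.4, 31 and 18.8 FPKM in healthy libraries, at 0 to 7.87 (median 3.19) in pre-leukemic libraries, and at 5.96, 14.1, 20.6 and 4.22 in recovered libraries. Recovered 1 and 4 lay within the pre-leukemic range and recovered 3 within the healthy one. It was lower in pre-leukemic than in healthy samples by limma (-2.84 ± 0.75, adjusted p = 0.0114), but not without healthy 2 (adjusted p = 0.149) or with a pseudocount of 0.1 (adjusted p = 0.0541), over a range from 0.000327 to 0.149 in all alternatives. Recovered and pre-leukemic samples differed by 1.54 ± 0.59 (adjusted p = 0.0522, with 0.00169 to 0.149 over the alternatives), just short of the threshold.

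**Figure D3:**
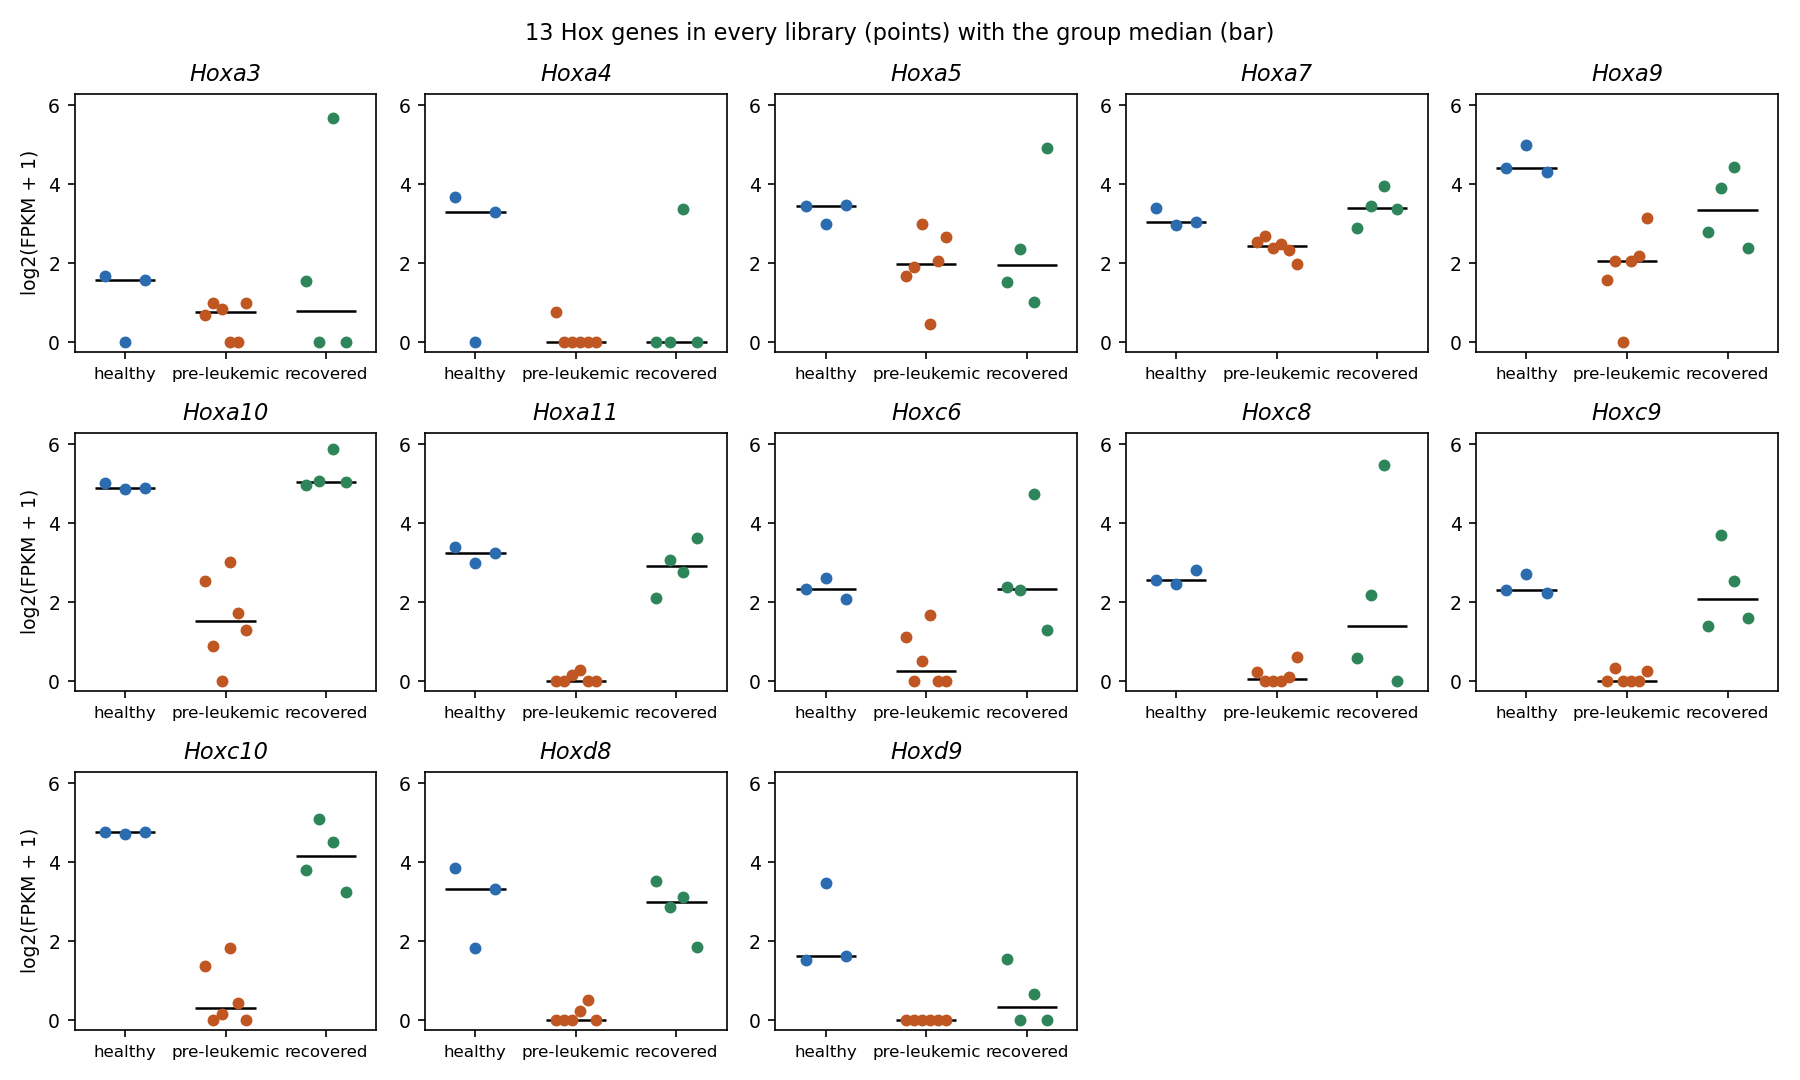
Level, as log2(FPKM + 1), of 13 Hox genes in each healthy, pre-leukemic and recovered library (points), with the median of the libraries of the group as a bar. Hoxa10, Hoxa11 and Hoxc10 are high in all 3 healthy and all 4 recovered libraries and low in all 6 pre-leukemic ones.

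Hoxc9, a thoracic gene that silences limb-level Hox genes in motor neurons, measured 3.96, 5.6 and 3.68 FPKM in healthy libraries, 0 to 0.253 (median 0) in pre-leukemic libraries, and 1.62, 12.1, 4.81 and 2.04 in recovered libraries. Every pre-leukemic value lay below every other value. The limma change was -2.40 ± 0.56 (adjusted p = 0.00525; 0.0721 without healthy 2) for pre-leukemic against healthy samples and 2.21 ± 0.44 (adjusted p = 0.00118) for recovered against pre-leukemic samples.

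The HoxD genes tested were Hoxd8 and Hoxd9, next to each other in the middle of their cluster. Hoxd8 stood at 13.5, 2.58 and 9.09 FPKM in healthy libraries, at most 0.438 (median 0) in pre-leukemic libraries, and at 10.6, 6.33, 7.67 and 2.61 in recovered libraries. It was lower in pre-leukemic than in healthy samples (limma change -2.60 ± 0.56, adjusted p = 0.00301) and higher in recovered than in pre-leukemic ones (2.72 ± 0.44, adjusted p = 0.000226). Hoxd9 was listed at 0 in all 6 pre-leukemic libraries, against 1.88, 10.1 and 2.09 FPKM in healthy libraries and 1.94, 0, 0.584 and 0 in recovered libraries. limma called it lower in pre-leukemic than in healthy samples (adjusted p = 0.00217), though not without healthy 2 (0.0623), the library with its highest value. Hoxd10, the next gene outward, was at 0 in recovered 1 and at 0.806, 3.57 and 4.14 FPKM in the other recovered libraries, with a highest value of 0.117 elsewhere, and was too rarely detected to be tested.

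Hoxa7, a central gene with a role in thoracic vertebrae, was the one Hox gene detected in all 13 libraries. It stood at 9.58, 6.85 and 7.25 FPKM in healthy libraries, at 2.94 to 5.49 (median 4.42) in pre-leukemic libraries, and at 6.38, 9.94, 14.5 and 9.33 in recovered libraries. The pre-leukemic libraries were the lowest, without overlap, but the limma change from healthy samples was -0.70 ± 0.46 (adjusted p = 0.286, with 0.0106 to 0.422 over the alternatives). Recovered samples were 1.01 ± 0.37 higher than pre-leukemic ones (adjusted p = 0.041), a call that held in 10 of 23 alternatives, with the adjusted p from 0.0012 to 0.162. Leaving out any 1 of the pre-leukemic libraries or recovered 2, 3 or 4 ended it, with adjusted p from 0.0562 to 0.082. Its exons overlap the antisense gene Hoxaas3.

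Hoxa5, which is needed for lung and for the vertebrae where neck and thorax meet, did not pass any of the 3 tests. It measured 9.86, 7.0 and 10.2 FPKM in healthy libraries, 0.387 to 6.97 (median 2.96) in pre-leukemic libraries, and 1.87, 4.18, 1.03 and 29.1 in recovered libraries. Recovered 4 held by far the highest value, and the other recovered libraries lay within the pre-leukemic range. The change was -1.27 ± 0.89 for pre-leukemic against healthy samples (limma adjusted p = 0.311) and 0.50 ± 0.70 for recovered against pre-leukemic samples (adjusted p = 0.601), which became -0.32 without recovered 4. On the TPM scale the first change was called (-2.50, adjusted p = 0.0366). Its group mean in recovered samples, 9.06 FPKM, rests on that library.

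Hoxc6 and Hoxc8, thoracic genes of the middle of HoxC, were most abundant in recovered 3. Hoxc6 stood at 4.04, 5.13 and 3.22 FPKM in healthy libraries, at 0 to 2.2 (median 0.217) in pre-leukemic libraries, and at 4.24, 3.94, 25.6 and 1.48 in recovered libraries. It was higher in recovered than in pre-leukemic samples (limma change 2.13 ± 0.60, adjusted p = 0.0118), with recovered 4 inside the pre-leukemic range. Against healthy samples the pre-leukemic change was -1.86 ± 0.76 (adjusted p = 0.0853), which passed in 6 of 22 alternatives, among them the one without recovered 3 (adjusted p = 0.0209).

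Hoxc8 measured 4.91, 4.47 and 6.09 FPKM in healthy libraries, at most 0.527 (median 0.0363) in pre-leukemic libraries, and 0.502, 3.56, 43.7 and 0 in recovered libraries. Healthy and pre-leukemic libraries did not overlap, and the recovered ones ran from the level of the latter to far above the former. The limma changes were -2.42 ± 1.0 for pre-leukemic against healthy samples (adjusted p = 0.0898; 0.00292 without recovered 3) and 1.90 ± 0.79 for recovered against pre-leukemic samples (adjusted p = 0.0698). Without recovered 3 the latter change was 0.77 and did not pass, and without recovered 4 it was 2.59 and passed (adjusted p = 0.0185).

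The anterior genes Hoxa3, a patterning gene of thymus and parathyroid, and Hoxa4 varied widely within groups. Hoxa3 stood at 2.19, 0 and 2.0 FPKM in healthy libraries, at 0 to 1.01 (median 0.702) in pre-leukemic libraries, and at 1.95, 0, 50.05 and 0 in recovered libraries. Hoxa4 stood at 11.8, 0 and 8.83 FPKM in healthy libraries, at 0.695 in pre-leukemic 1 and 0 in the other pre-leukemic libraries, and at 0, 0, 9.4 and 0 in recovered libraries. Neither passed any of the 3 tests, with limma adjusted p from 0.203 to 0.902. Hoxa4 passed in pre-leukemic against healthy samples with healthy 1 and 3 as separate libraries (-2.20, adjusted p = 0.0438), and its change ran from -3.37 (without healthy 2) to -1.52 with a library left out. Both overlap antisense genes, and Hoxa3 also shares exon sequence with a gene model on its own strand.

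A set of genes was seen in healthy 1 and 3 and not in healthy 2. Besides Hoxa3 and Hoxa4 these were Hoxc4 (2.09 and 1.79 FPKM), Hoxc5 (3.49 and 3.07) and Hoxc13 (4.57 and 3.11), each listed at 0 in healthy 2. Since healthy 1 and 3 count as 1 sample, these genes rest on a single healthy sample. The filter on low values counted healthy 1 and 3 separately, and Hoxa4 and Hoxc4 passed it only for that reason. Hoxc5 was at 0 in all 10 other libraries, and Hoxc13, a gene of hair and nail, reached 0.0858 FPKM in pre-leukemic 1. Hoxc4 was highest in recovered 2, at 10.3 FPKM, and passed none of the tests. Hoxc11 stood at 1.57, 4.56 and 1.75 FPKM in healthy libraries, at most 0.831 in pre-leukemic libraries, and at 3.84, 0, 5.71 and 0.173 in recovered libraries, with a limma adjusted p of 0.0686 for pre-leukemic against healthy samples.

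HoxB was nearly silent in all groups. Of the 130 values of its 10 genes, 17 were above 0 and 2 reached 1 FPKM, both of Hoxb6, at 1.26 in pre-leukemic 5 and 1.17 in pre-leukemic 6. Hoxb4, a gene of blood stem cells, was above 0 in 4 of the 6 pre-leukemic libraries, with at most 0.278 FPKM, and was listed at 0 in all others. Hoxb2 was the one HoxB gene above 0 in healthy libraries, at 0.0929 and 0.311 FPKM in healthy 1 and 3. Hoxa2 was detected in pre-leukemic libraries alone, at 1.07 and 1.3 FPKM in pre-leukemic 4 and 5. For Hoxb6, 3 reads were worth 0.264 FPKM in pre-leukemic 5 and 0.375 in pre-leukemic 6. For Hoxa2 they were worth 0.415 FPKM in pre-leukemic 4 and 0.295 in pre-leukemic 5. The detected values of these genes thus stood for more than 3 reads, though they were low. All values of Hoxb4 and Hoxb2 lay below the worth of 3 reads in their library.

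Recovered against pre-leukemic samples, limma called 7 of 15 tested Hox genes higher and none lower: Hoxa7, Hoxa10, Hoxa11, Hoxc6, Hoxc9, Hoxc10 and Hoxd8. Of all genes tested 14.8% were called higher and 25.1% lower. The median change of the 15 genes was 1.54, with a range from 0.50 to 3.66, beside -0.41 over all genes tested. Among the called genes, Hoxa11, Hoxc9 and Hoxd8 passed the filter without a pre-leukemic library at 1 FPKM, as did others named above. The filter thus partly fixed this direction, count and median as well. Without recovered 3, the library with the highest Hox sum, 6 were called higher.

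Recovered and healthy samples did not differ past the threshold for any of the 15 tested Hox genes, in a comparison that called 0.518% of all genes higher and 1.99% lower. The median Hox change was -0.27, beside -0.08 over all genes. At an unadjusted limma p under 0.05 there was 1 Hox gene, Hoxd9, with -1.97 ± 0.55 (adjusted p = 0.0799), while 16.5% of all genes passed that mark in either direction. Hoxd9 passed the adjusted limma threshold without recovered 1 (0.0212) and on the TPM scale (0.043), and in no other alternative. With a library left out its change ran from -2.31 to -1.02. Its healthy mean, 6.07 FPKM, rests mainly on healthy 2, at 10.1 against 1.88 and 2.09 FPKM in healthy 1 and 3. The intervals are wide: Hoxa9 differed by -1.30, with a 95% interval from -3.01 to 0.41, Hoxc10 by -0.57 (-2.03 to 0.89) and Hoxa11 by -0.27 (-1.33 to 0.79), so these samples do not show that the levels were the same.

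**Figure D4:**
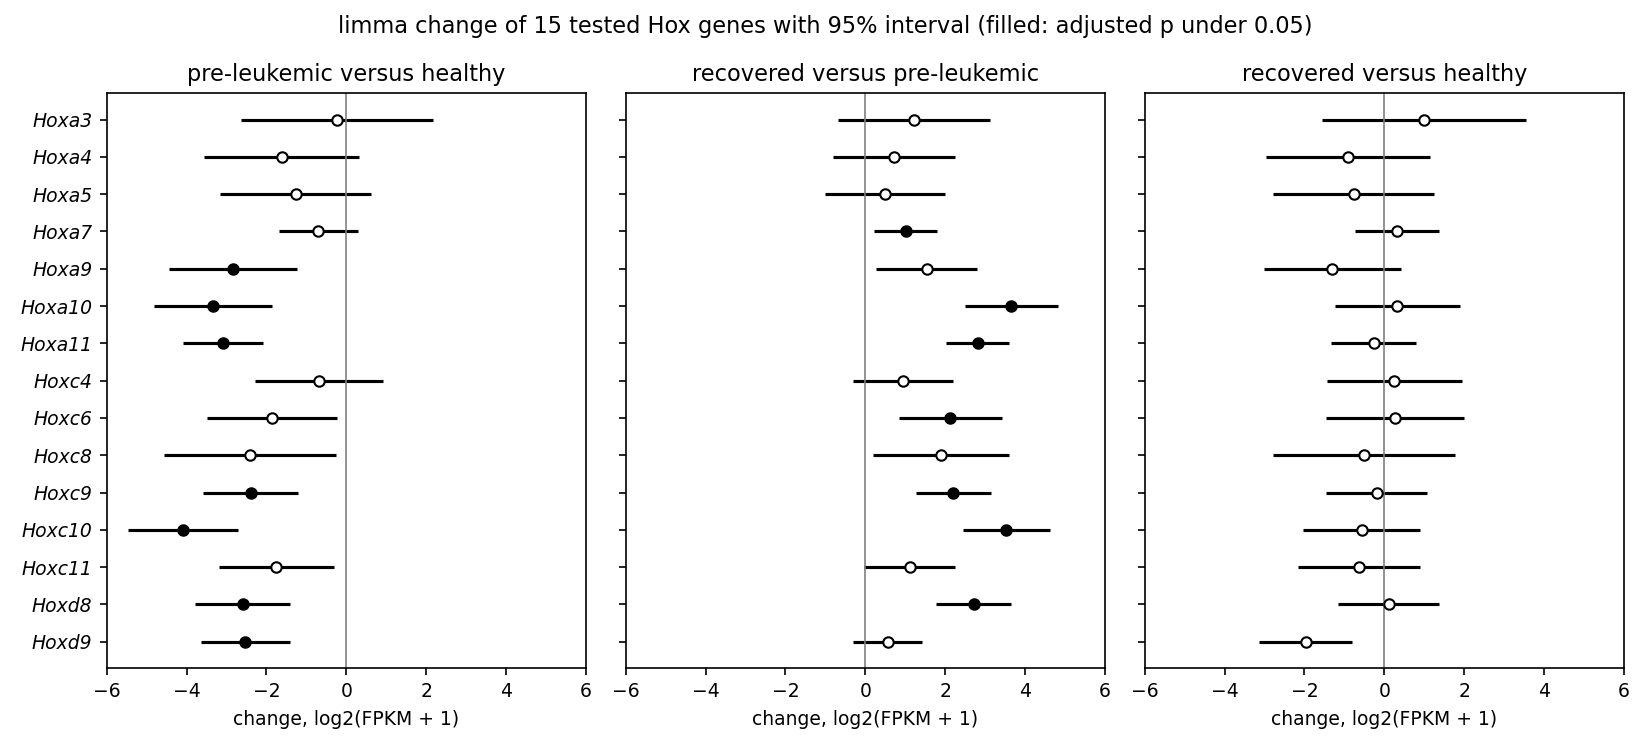
Change of the 15 tested Hox genes on the log2(FPKM + 1) scale in each of the 3 comparisons, as limma's estimate (points) with its 95% interval (lines), filled where the adjusted p is under 0.05. In the first comparison 7 points are filled left of 0, in the second 7 right of 0, and in the last none.

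Of 27 listed noncoding and flanking genes of the clusters, 23 were in the table and 13 were tested, of which limma called 1 higher and 3 lower in pre-leukemic against healthy samples and 1 higher and 1 lower in recovered against pre-leukemic samples. Of all genes tested, 14.2% were called higher and 13.1% lower in the first comparison and 14.8 and 25.1% in the second. The list's median changes were 0.37 and -0.31. Hotairm1, a noncoding RNA at the anterior end of HoxA, stood at 7.54, 28 and 9.64 FPKM in healthy libraries, at 4.05 in pre-leukemic 6 and 0 in the other pre-leukemic libraries, and at 2.56, 17.6, 78.9 and 18 in recovered libraries. It was lower in pre-leukemic than in healthy samples (limma change -3.67 ± 0.96, adjusted p = 0.011) and higher in recovered than in pre-leukemic ones (3.76 ± 0.76, adjusted p = 0.00135), and recovered 3 was again the highest. Hoxa11os and Hoxd3os1, which are antisense transcripts, were listed at 0 in all 6 pre-leukemic libraries and called lower there (adjusted p = 0.0313 and 0.0375). Both passed the filter through the other groups alone. Skap1, a T-cell adaptor gene beside HoxB, went the other way, from 7.46 ± 7.19 FPKM (SD, n = 2) in healthy to 68.8 ± 28.8 (n = 6) in pre-leukemic samples (adjusted p = 0.0223). Hottip and Hotair, noncoding RNAs of posterior HoxA and HoxC, were at 0 in every library.

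The cofactors showed no called change between healthy and pre-leukemic samples. All 9 Pbx, Meis and Pknox genes were tested, with 0 called by limma in either direction, 2 lower and 0 higher at an unadjusted p under 0.05, and a median change of -0.79. In recovered against pre-leukemic samples 1 was called higher and none lower, also at an unadjusted p under 0.05 for the latter, with a median change of 0.51. Over all genes tested, 13.1% were called lower and 14.2% higher in the former comparison. The shares in the latter were 25.1% lower and 14.8% higher. With only 9 genes, these counts were not read as a difference from all genes. Meis2 had a limma change of -2.13 ± 0.87 (adjusted p = 0.0866) in pre-leukemic against healthy samples, with pre-leukemic 4, at 7.41 FPKM, as high as the healthy libraries.

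Among 28 Polycomb genes, 1 was higher and 2 lower in pre-leukemic against healthy samples, with a median change of 0.22, beside 14.2% higher and 13.1% lower over all genes. Suz12, a core subunit of the H3K27 methyltransferase, was the higher one, at 1.16 ± 0.791 FPKM (SD, n = 2) in healthy and 12.7 ± 2.74 (n = 6) in pre-leukemic samples (limma change 2.69 ± 0.60, adjusted p = 0.00424). Pcgf2 and Cbx6, both of the H2A ubiquitin branch, were lower (-3.07 ± 0.74, adjusted p = 0.00685, and -2.08 ± 0.49, adjusted p = 0.00603). In recovered against pre-leukemic samples 3 Polycomb genes were called higher (Rbbp4, Pcgf2 and Cbx6) and 7 lower, beside 14.8 and 25.1% of all genes, with Suz12 among the latter (-1.49 ± 0.48, adjusted p = 0.0231).

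Of 14 trithorax, MLL complex and H3K27 demethylase genes, 1 was called lower by limma and none higher in pre-leukemic against healthy samples, also at an unadjusted p under 0.05, beside 13.1% lower and 14.2% higher over all genes. That gene was Kdm6b, a demethylase that removes the Polycomb mark, at 22.2 ± 0.107 FPKM (SD, n = 2) in healthy, 3.85 ± 2.59 (n = 6) in pre-leukemic and 43.1 ± 6.71 (n = 4) in recovered samples. Its limma change was -2.43 ± 0.55 (adjusted p = 0.0046) and then 3.35 ± 0.44 (adjusted p = 3.5e-05). Kmt2a, the gene of MLL itself, stood at 4.58, 5.09 and 1.92 FPKM in these groups and was lower in recovered than in pre-leukemic samples (-1.11 ± 0.42, adjusted p = 0.0465). In that comparison 4 genes of the list were lower, with Kmt2b, Wdr5 and Rbbp5 beside it, and 2 were higher, Kdm6b and Dpy30, against 25.1% lower and 14.8% higher over all genes.

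Genes of the retinoic acid pathway and other upstream inputs were lower in pre-leukemic samples in 5 of 17 tested cases, among them Rarg, Aldh1a3 and Crabp2, beside 13.1% of all genes. None was called higher by limma, with 1 at an unadjusted p under 0.05. Crabp2, a retinoic acid carrier, stood at 48.6, 36 and 56.5 FPKM in healthy libraries, at 0 to 6.29 in pre-leukemic libraries, and at 33.7, 58.5, 124.0 and 169.6 in recovered libraries. It fell by 4.94 ± 0.80 on the log2 scale (limma adjusted p = 0.000365). The receptor Rarg fell by 2.59 ± 0.50 (adjusted p = 0.00149) and Aldh1a3, an enzyme that makes retinoic acid, fell by 2.78 ± 0.94 (adjusted p = 0.0396). In recovered against pre-leukemic samples 7 of these genes were higher and 1, Gmnn, was lower, beside 14.8 and 25.1% of all genes. Cdx1 and Cdx2 were at 0 in every library.

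Regional factors of limb, girdle and axial skeleton were lower in pre-leukemic than in healthy samples in 12 of 20 tested cases, beside 13.1% of all genes, with a median change of -2.08. They were higher in recovered than in pre-leukemic samples in 11, beside 14.8% of all genes, with a median of 1.74. None was called by limma in the opposite direction in either comparison, also at an unadjusted p under 0.05. Among those called lower, Pitx1, Tbx3, Tbx4, Irx3 and Irx5 reached 1 FPKM in no pre-leukemic library, so the filter partly fixed their direction. The same held for Pitx1, Tbx3, Barx1, Six2 and Irx3 among those called higher in recovered samples. Prrx2, a limb mesenchyme homeobox gene, stood at 120.6, 116.9 and 123.0 FPKM in healthy libraries, at 0 to 6.39 in pre-leukemic libraries, and at 73.6, 65, 69.6 and 102.7 in recovered libraries (limma change -5.94 ± 0.66, adjusted p = 1.8e-05, for pre-leukemic against healthy samples). Tbx15, a scapula and limb gene, stood at 27.7 ± 7.12 FPKM (SD, n = 2) in healthy, 0.415 ± 0.633 (n = 6) in pre-leukemic and 16.3 ± 11.2 (n = 4) in recovered samples (-4.43 ± 0.64, adjusted p = 0.000159, for the first pair). Recovered against healthy samples, 1 regional gene was called higher (Barx1) and 2 were called lower (Meox1 and Irx5). Over all genes tested, 0.518% were called higher and 1.99% lower in that comparison. Meox1, a somite gene, stood at 1.9, 1.94, 0.572 and 0 FPKM against 14.4, 15.7 and 11.6 (-3.0 ± 0.58, adjusted p = 0.0158).

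Pitx1 and Tbx4 mark the hindlimb and Tbx5 the forelimb, and they are given for that reason, chosen after their values were seen. Pitx1 stood at 10.5, 9.6 and 7.69 FPKM in healthy libraries, at most 0.672 in pre-leukemic libraries, and at 6.88, 8.94, 17.6 and 26.3 in recovered libraries. Tbx4 stood at 0.626, 2.15 and 1.05 FPKM in healthy libraries and at 1.87 in recovered 2. It was at 0 in all pre-leukemic libraries and in recovered 1, 3 and 4. Tbx5 stood at 0.604 to 1.41 FPKM in healthy libraries, at most 0.207 in pre-leukemic libraries, and at 1.23, 0, 3.31 and 0 in recovered libraries.

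Markers of the sorted cell type moved with these changes. All 12 stromal cell markers were called lower in pre-leukemic than in healthy samples (limma median change -4.25) and all 12 higher in recovered than in pre-leukemic samples (3.53), and none was at 0 in every pre-leukemic library. They summed to 16760 to 18423 FPKM among healthy, 261.1 to 990.1 among pre-leukemic, and 6522 to 9296 among recovered libraries. All 8 pan-leukocyte markers were called higher in pre-leukemic samples (median change 5.34), with sums of 33.9 to 47.1 FPKM among healthy, 1285 to 2030 among pre-leukemic, and 18.8 to 128.4 among recovered libraries, so the pre-leukemic libraries go against their label as a stromal sort. The same held for plasma cell and B markers, with 9 of 10 called higher. Markers of blood stem and progenitor cells came to 82.9 to 116.8 FPKM among healthy, 49 to 135.7 among pre-leukemic, and 176.8 to 322.9 among recovered libraries, with 3 of 10 called higher in pre-leukemic than in healthy samples. Cd34, which was higher in recovered than in pre-leukemic samples (limma change 2.39, adjusted p = 0.000391), made up 82.8 to 98.3% of that sum in healthy and recovered libraries and 31.3 to 78% in pre-leukemic ones. In the same comparison 4 of the 10 were lower, namely Kit, Gata2, Mecom and Flt3. Of all genes tested, 13.1% were called lower and 14.2% higher in pre-leukemic against healthy samples. In recovered against pre-leukemic samples 25.1% were called lower and 14.8% higher. Counts of 3 and 4 among 10 stem and progenitor markers are not far from these shares. The part of these cell types in the Hox changes was not tested.

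The Hox levels were also set beside the stromal marker sum, with results that differed by gene. The summed Hox level was 0.967, 0.747 and 0.871% of the stromal marker sum in healthy libraries, 1.83 to 5.32% in pre-leukemic libraries, and 0.922, 1.74, 4.2 and 1.23% in recovered libraries. Hoxa7 alone came to 0.0372 to 0.0571% of the stromal sum among healthy, 0.419 to 2.1% among pre-leukemic, and 0.0686 to 0.222% among recovered libraries. Hoxa10 came to 0.153 to 0.188% in healthy libraries, to 0% in pre-leukemic 3, 0.21 to 0.724% in the remaining pre-leukemic libraries, and to 0.325 to 0.895% in recovered libraries. Hoxa11 stood at 0.0377 to 0.0574% among healthy libraries, at 0.0381% in pre-leukemic 3, 0.023% in pre-leukemic 4 and 0% in the other pre-leukemic libraries. Hoxc10 came to 0.136 to 0.156% among healthy and 0 to 0.256% among pre-leukemic libraries, so its ranges overlapped. Hoxd9 came to 0.0112 to 0.0551% among healthy libraries and to 0% in all 6 pre-leukemic ones. For the Hox sum and Hoxa7 the ratio lay above every healthy library in all 6 pre-leukemic libraries, for Hoxa10 in all but pre-leukemic 3. It did so in 2 of 6 for Hoxc10, in pre-leukemic 2 alone for Hoxc9, and in none for Hoxa11, Hoxd8 and Hoxd9. In pre-leukemic libraries 3 reads of Hoxa11 were worth 0.224 to 0.317 FPKM, and 3 of Hoxd9 0.241 to 0.342. At the healthy ratio these 2 genes would give few reads there, so their low ratios do not settle a difference from healthy libraries. Dcn, a matrix proteoglycan gene, made up 58.7 to 78.7% of the stromal sum in every library, so the ratio is mainly one to Dcn. These ratios were added after the values were seen, and the markers themselves may change per cell.

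**Figure D5:**
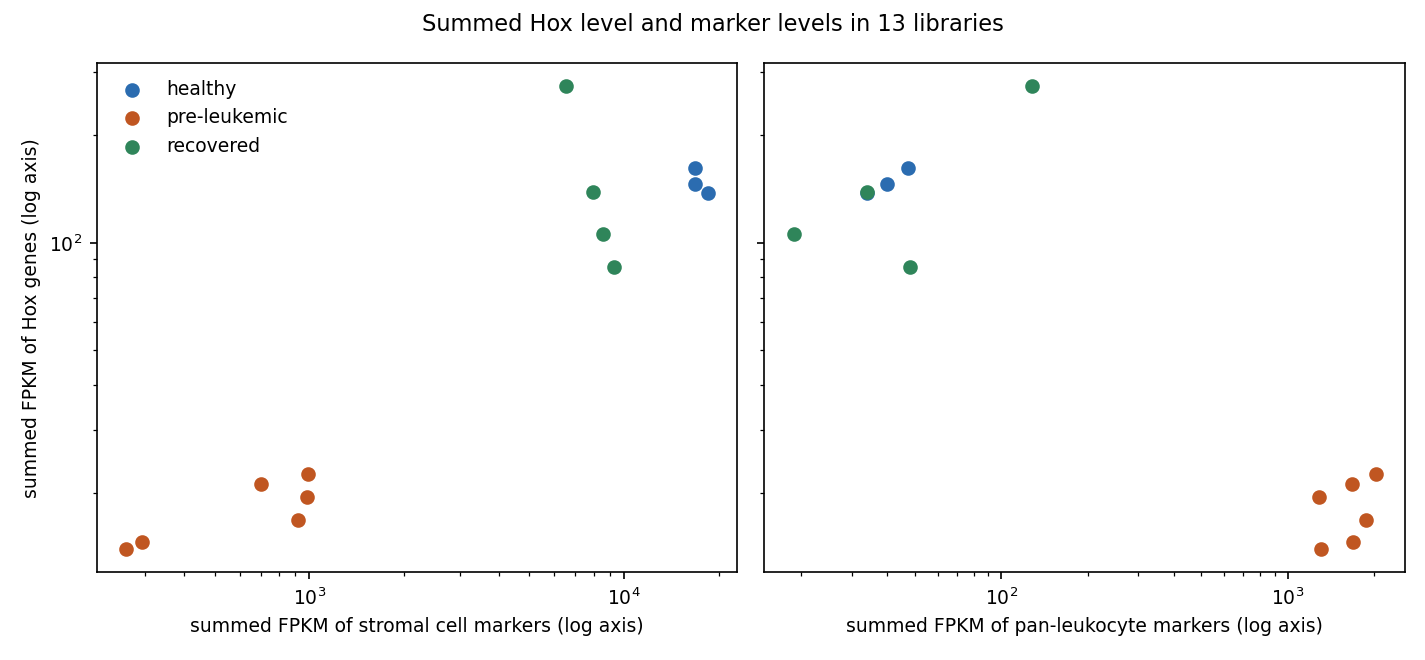
Summed FPKM of the 38 Hox genes against the summed FPKM of 12 stromal cell markers (left) and of 8 pan-leukocyte markers (right), each point a library, all axes logarithmic, colours for the groups. The 6 pre-leukemic libraries stand apart from the other groups on all 3 measures.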

How the data were processed

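RNA-seq of sorted mouse MSCs was analysed in 13 libraries. The authors deposited FPKM values per gene in 1 table of 33433 rows, 1 of them without a gene name and at 0% of the sum; bcl2fastq, TopHat, Cufflinks 2.2.1, Cuffnorm and mm10 are named per the submitters' processing notes. Per the labels' protocols, polyadenylated RNA was used and the library kit was Nextera XT, which does not mark strand. The annotation, strand setting and library-size method of Cuffnorm are not given in these sources. FPKM depend on the RNA that other genes take up, so a large immunoglobulin share lowers all others on a TPM scale.

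Symbols of 32082 rows matched GENCODE M21 (GRCm38, equal to mm10), the source of coordinates and exon overlaps. Depth comes from the smallest value steps of 2832 single-transcript genes of at least 800 bp (tolerance 0.06 on the log2 scale). Floors, the FPKM that a few reads were worth, cover counting error only. The intervals of changes were built from limma's standard errors, so they reflect the spread among the samples. An exact 0 may be a failed estimate: of 132 ribosomal, proteasome and polymerase genes, 6 were at 0 in at least 1 library and 1 in all.

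In R 4.3.3, limma 3.58.1 (lmFit, then eBayes with its trend option) was fitted to log2(FPKM + 1) of 12 samples in 3 groups, with 9 residual degrees of freedom, for 13118 genes at 1 FPKM or more in at least 3 libraries, with Benjamini-Hochberg adjustment over all of them. The model was run on simulated data with normally distributed noise and without exact zeros, so that run does not cover genes with many zeros. Hox genes with a group mean of at least 5 FPKM or a call are given in every library. Pathway genes were named by the 4 smallest p per list in pre-leukemic against healthy samples and the 2 in recovered against healthy samples. Some genes taken by these rules are not reported here. The members, lists and the averaging of healthy 1 and 3 were chosen with earlier results of these data known. Alternatives were quantile normalization, the TPM scale, scaling without immunoglobulin genes, a pseudocount of 0.1, no filter, fits to only the groups compared, a filter at a mean of at least 5 FPKM, separate healthy libraries, arrayWeights, a replicate block, leaving out each library, and detection at 0.5, 2 or 3 FPKM. Promoter windows are from RefSeq (GRCm38.p6). Summaries and plots used Python 3.11.15, matplotlib 3.10.9, pandas 2.3.3, numpy 2.4.6 and scipy 1.17.1.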

Additional observations from a re-analysis of the deposited data

Results flagged for a closer look

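Dixon's test was applied to 37 sets of values in the 6 pre-leukemic and the 4 recovered libraries. They were those of 13 Hox genes, the shares of the clusters, the summed level and the number detected. Its usual chance rate does not apply, since the sets share libraries and hold many zeros. Where all values but 1 are 0, the flag is fixed, as for Hoxa4 in both groups. In 9 sets a library lay far from the rest. Recovered 3 was that library for 5 genes: Hoxa10 at 58.4 FPKM (others 30.2 to 32.4), Hoxa3 at 50.05 (0 to 1.95), Hoxc8 at 43.7 (0 to 3.56), Hoxc6 at 25.6 (1.48 to 4.24) and Hoxa4 at 9.4 (others at 0). Hoxa5 stood out in recovered 4, at 29.1 FPKM against 1.03 to 4.18. Among pre-leukemic libraries, Hoxc8 stood out in the sixth at 0.527 FPKM (others 0 to 0.185), Hoxa4 in the first at 0.695 (others at 0), and the HoxD share in the fifth at 2.6% of the summed Hox level (others 0 to 0.789%).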

How the results depend on the processing

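Over 873 recomputed values of single Hox genes, 810 kept their direction and their side of the threshold, 18 lost a call, 27 gained one and 18 turned sign; none of the 14 called values turned sign. Hox genes called lower in pre-leukemic against healthy samples numbered 12 on the TPM scale, 3 of 5 tested at a mean of at least 5 FPKM, 11 with healthy 1 and 3 as separate libraries, and 4 (without healthy 2) to 10 (without recovered 3) when each library was left out, against 7. Without healthy 2 a lone healthy sample remains, whose variance is assumed to be that of the rest. For recovered against pre-leukemic samples the count was 4 of 5 tested at a mean of at least 5 FPKM and 6 to 9 with a library left out, against 7, and for recovered against healthy samples it was 1 on the TPM scale and 0 to 1 (1 without recovered 1), against 0. The TPM scale moved the median change of all genes from 0.20 to -1.08, and from -0.41 to 0.58 in recovered against pre-leukemic samples, and split all calls into 791 higher and 4200 lower, and 3768 and 1213, against 1858 and 1725, and 1945 and 3299. Quantile normalization gave 2460 and 2424 in the latter comparison. Calls over all genes numbered 1716 without healthy 2 in pre-leukemic against healthy samples, against 3583. In recovered against healthy samples they numbered 211 with quantile normalization, 122 at a mean of at least 5 FPKM, 103 with only the groups compared, 767 with separate healthy libraries, 163 with arrayWeights and 82 to 682 with a library left out, against 329. At 3 FPKM, 2.33 Hox genes were detected per pre-leukemic library, against 5.

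Signs turned in uncalled values. With a library left out, Hoxa3 ran from -0.07 (without recovered 3) to 1.82, Hoxa4 from -0.13 (without recovered 3) to 1 and Hoxa5 from -0.32 (without recovered 4) to 0.98 in recovered against pre-leukemic samples. In recovered against healthy samples, Hoxa3 ran from -0.29 (without recovered 3) to 1.60, Hoxc6 from -0.41 (without recovered 3) to 0.73, Hoxc8 from -1.65 to 0.18 (without recovered 4), Hoxc9 from -0.65 to 0.12 (above 0 without healthy 2, recovered 1 or recovered 4) and Hoxd8 from -0.77 (without healthy 2; below 0 also without healthy 3 or recovered 1) to 0.45. In the same comparison Hoxc9 gave 0.25 with quantile normalization and 0.02 with the replicate block, and Hoxd8 gave -0.05 without immunoglobulin genes and on the TPM scale, -0.17 with separate healthy libraries and -0.03 with the block. The cause was not tested.

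Replicate numbers did not pair the samples: none of 10 same-number pairs correlated above 0.1 (-0.0194 to 0.0337), and 2 of 9 libraries matched their own number best. The fit with the replicate number as a block also kept healthy 1 and 3 as separate libraries. It called 7, 6 and 0 Hox genes in the 3 comparisons. In recovered against pre-leukemic samples the limma calls of Hoxc6 (adjusted p = 0.0656) and Hoxa7 (0.162) were lost. That of Hoxa9 was gained (0.0382), as it also was with separate healthy libraries and no block (0.0398). The number of libraries and their depth limit the precision of low values.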
